A study of Mus musculus with 12 samples.

Results

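On the array of activated BV2 cells that received the compound E29 for 4 h, a set of transcripts that activation had left near their resting level read lower than in both controls, and under each other compound at most 4 of them did so by 2-fold. The set comprised 321 of 25697 array probes. The rule took log2 signals, after values under 50 had been raised to 50, and asked for 2 things. The median of the 11 activated arrays had to lie within 1 log2 unit of the non-activated control, and the E29 array had to lie at least 1 log2 unit (2-fold) below both the activated and the non-activated control. Of 6064 activation-neutral probes with a signal of at least 100 on both controls, which is the level from which such a difference is measurable, 5.29% met the rule, and these 6064 are the activation-neutral probes referred to below. The probes were chosen by the signals of the E29 array and both controls, so their differences from E29 are a description and carry no test.

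BV2 is an immortalised mouse microglial line, and microglia are the resident macrophages of the brain. Lipopolysaccharide (LPS, a bacterial cell wall component) signals through Toll-like receptor 4 and interferon-γ (IFN-γ) through its own receptor, and together they switch on inflammatory genes. A gene that keeps its level through this switch can still be lowered by a compound, and such genes include feedback regulators, metabolic enzymes and general parts of the transcription and splicing machinery. Many messages for regulators of this kind are short-lived.

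Total RNA was labelled and read on 12 Illumina bead arrays of a single colour, each condition having its own array. These were a non-activated control, a control activated with LPS at 1 µg/ml and IFN-γ at 10 ng/ml, and activated cultures that each received for 4 h either E29 or another compound, namely E33, E23, E21, E20, E19, E18, E14, E5 or E4. All cultures came from the same cell line, and the compounds are known here only by code, with neither dose nor vehicle in the labels. With 1 array per condition there is no replicate spread, so no comparison below has a p-value, and this number of arrays sets the precision.

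The arrays were alike in quality: 33.2% to 36.9% of probes were detected on each (detection p-value under 0.01). Of 23 microglia and macrophage marker genes on the array, 13 to 17 were detected on each array, and their summed signal ran from 24820 to 31073, with E29 the highest. No marker of astrocytes, neurons, fibroblasts or lymphocytes was detected on any array, while 1 to 2 of 8 oligodendrocyte markers and 2 of 7 endothelial markers were detected on every array. In a culture, fewer cells that express a gene and less RNA of it per cell cannot be told apart.

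The 321 probes represented 264 named genes, and 18 probes had no gene name in the platform annotation. On the log2 scale, E29 minus activated control had a median of -1.42 over these probes (2.67-fold lower, interquartile range -1.81 to -1.19). Against the non-activated control the median was -1.63 (3.09-fold lower). The E29 array as a whole was shifted slightly the other way: over the 8146 probes at 100 or more on E29 or the activated control the median difference was 0.13, and relative to that shift the probes of the set lay at -1.54. E29 also spread the other probes more widely than any other compound. Over the 6064 activation-neutral probes its differences from the activated control had an interquartile range of -0.28 to 0.47, compared with -0.18 to 0.19 for E33.

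Below the lower of the controls, E29 was between 2-fold and 4-fold lower for 287 probes, between 4-fold and 8-fold for 28 and at least 8-fold for 6. These counts used E29 signals raised to 50, also for undetected probes. All 321 were detected on both controls, but 105 were not detected on E29, and 69 of these sat at the floor of 50. For the undetected probes the folds given for single genes are bounds, taken against the lowest signal of a detected probe on the E29 array, 65.1. Some of these bounds were under 2-fold, as for Vhl at 1.75-fold below the activated control, so a 2-fold difference is not shown for them. The probes just inside the limits were Phax and Ckap5, at 1.00 and 1.01 below the activated control, and Usp6nl and Csnk1g3, at 1.00 and 1.01 below the non-activated control. Just outside were Snx18 at 0.998 and an unnamed probe at 0.9996 below the activated control, and Ppm1l and Cd300a at 0.998 and 0.993 below the non-activated control. At the limits on activation, Pkp2 and Samd8 lay inside at 0.99 and 0.96 and Tbcel and Cdc14b at 0.98 and 0.96 below the non-activated control, while Zfp212, a second Pkp2 probe, Evi2a and Exosc1 lay outside at 1.00, 1.08, 1.00 and 1.01.

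The promoters of 4 of the genes described below are shown because these genes encode regulators to which the results below return and RefSeq lists a promoter for them. Each line gives the 150 bases before the annotated gene start, 5′ to 3′, from RefSeq on build GRCm38.p6, and capitals mark matches to any of the motifs named after them.
Bcl6 chr16:23988853-23989002 (minus strand): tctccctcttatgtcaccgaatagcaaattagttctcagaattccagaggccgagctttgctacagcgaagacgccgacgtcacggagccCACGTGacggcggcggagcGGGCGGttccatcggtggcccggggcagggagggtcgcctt
Cebpb chr2:167688765-167688914 (plus strand): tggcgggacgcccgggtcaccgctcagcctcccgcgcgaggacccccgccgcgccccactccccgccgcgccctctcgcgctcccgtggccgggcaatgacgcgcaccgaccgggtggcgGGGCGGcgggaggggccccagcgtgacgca
Txnip chr3:96557807-96557956 (plus strand): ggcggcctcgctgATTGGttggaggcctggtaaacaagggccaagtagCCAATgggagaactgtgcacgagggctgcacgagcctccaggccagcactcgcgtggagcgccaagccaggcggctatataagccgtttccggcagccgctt
Atf4 chr15:80255034-80255183 (plus strand): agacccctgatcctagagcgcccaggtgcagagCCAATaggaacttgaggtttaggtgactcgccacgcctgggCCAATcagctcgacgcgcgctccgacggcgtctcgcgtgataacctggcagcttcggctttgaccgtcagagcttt
The motifs searched on both strands were the TATA box (TATAAA), the CCAAT box (CCAAT), the GC box (GGGCGG), the cyclic AMP response element (TGACGTCA), the E-box (CACGTG) and the AP-1 element (TGACTCA). No 2 matches overlapped in the 4 promoters printed.

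RefSeq promoters were found for 219 of the 264 genes, 302 promoters in all. Of these, 49.7% held the GC box, compared with 54.0% of 4348 promoters of the other activation-neutral genes and 28.6% of all 32851 promoters in the table. The CCAAT box was present in 24.2%, against 28.5% and 24.5%. The AP-1 element was present in 3.97%, against 1.68% and 2.84%, the E-box in 7.62%, against 7.08% and 4.30%, the TATA box in 4.64%, against 2.78% and 7.57%, and the cyclic AMP response element in 1.33%, against 2.58% and 1.36%. The median GC content was 64.7%, against 62.7% and 54.0%. These shares were not tested, and a match is a string of letters and not a bound site. The genes spanned a median of 23.7 kb in the same annotation (interquartile range 9.98 to 58.9 kb, all 264 with a value), against 19.1 kb (8.61 to 40.4 kb) for the other activation-neutral genes.

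Genes that restrain or relay signals from cell surface receptors were among those farthest below the controls under E29. Rgs1 encodes a protein that switches off G-protein signalling, and it was the gene with 3 of the 6 largest differences. Its probe ILMN_2596596 read 9.69 in the non-activated and 10.95 in the activated control and ranged from 9.97 to 10.81 across the 9 other compounds (median 10.53), but read 6.43 under E29. That is 22.98-fold below the activated and 9.59-fold below the non-activated control, and the E29 value lay 3.26 log2 units under the next lowest array, which was the non-activated control. The other Rgs1 probes were 15.5-fold and 19.2-fold below the activated control. Rgs3, of the same family, read 7.72 and 7.70 in the controls and 7.40 to 8.17 under the other compounds, and was at the floor under E29, at least 3.18-fold below the activated control. The remaining measured family members, Rgs10 and Rgs19, differed from the activated control by 0.57 and -0.21.

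P2ry6 encodes a receptor for UDP, a nucleotide that damaged cells release and that stimulates microglial phagocytosis. Its log2 signal was 9.80 in the non-activated control, 10.10 in the activated control and 6.57 under E29, 11.5-fold below the activated control. Among the other compounds it ran from 8.67 to 10.68 with a median of 9.39, so its levels were spread on both sides of the controls and E29 still lay 2.10 below the lowest of them.

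The kinase PI3Kγ acts directly downstream of G-protein-coupled receptors in leukocytes, and both of its measured subunit genes were in the set. Pik3cg, the catalytic subunit, read 8.36, 8.40 and 6.81 in the non-activated control, the activated control and E29, 2.92-fold below the non-activated control. Pik3r6, a regulatory subunit with 2 probes in the set, was not detected on E29 and was at least 2.93-fold and 2.58-fold below the activated control. Pik3ap1, an adaptor that couples receptors to other forms of PI3K, was not detected either and was at least 3.98-fold below it. Sphingosine 1-phosphate signalling is a lipid messenger system, of which only the kinases and receptors were looked at. Of these, 7 genes had a probe, 3 were measured at the required signal, and all 3 were members. The kinases Sphk1 and Sphk2 were 2.47-fold and 2.51-fold and the receptor S1pr2 was 2.99-fold below the activated control. These families were put together after the members were seen. Over all 5790 genes with a probe at 100 or more on E29 or the activated control, 13.2% had a probe at least 2-fold below the activated control (12.0% when probes not detected under E29 are set to the lowest detected signal) and 6.99% a probe at least 2-fold above it.

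Several transcription factors were among the probes with the largest differences. Bcl6 is a repressor that restrains inflammatory genes in macrophages. Its log2 signal was 9.21 in the non-activated and 9.27 in the activated control and 8.59 to 9.48 under the 9 other compounds (median 8.97), a range that included both controls. Under E29 it was at the floor, at least 9.45-fold below the activated and at least 9.09-fold below the non-activated control. Cebpb, which encodes a factor that drives macrophage inflammatory and metabolic genes, read 12.46, 13.09 and 9.40 in the non-activated control, the activated control and E29, 12.9-fold below the activated control. Its level under the other compounds was 12.85 to 13.49, above the non-activated control in all 9.

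Atf4, the factor of the amino acid and integrated stress response, had values of 10.54 and 10.97 in the controls and 11.16 to 11.78 under the other compounds, all 9 above both controls. E29 was the exception at 8.76, 4.63-fold below the activated control. Of 18 measured genes in a list of ATF4 targets and the factor itself, 3 were at least 2-fold lower under E29 than in the activated control (Atf4, Cebpb and Wars) and 1 was at least 2-fold higher, and the list's median difference was -0.11. Xbp1, a factor of the unfolded protein response, read 11.65, 10.99 and 9.76 in the non-activated control, the activated control and E29. Wfs1, a membrane protein of the endoplasmic reticulum, read 8.58 and 8.51 in the controls and 8.25 to 9.24 under the other compounds, and was at the floor under E29, at least 5.59-fold below the activated control. The list of endoplasmic reticulum stress genes, 13 measured, had 1 gene lower and 1 higher with a median of 0.16. Jun, an AP-1 subunit, read 7.72, 7.29 and 6.18 on the same arrays. Among 21 measured immediate early and short-lived regulators, 10 were lower and 4 higher, with a median of -1.11, and Jun and Rgs1 were the genes of this list in the set. Of its 31 measured probes, 13 were activation-neutral and 4 were members, against 5.29% of all activation-neutral probes. The median of -1.11 therefore also covers probes outside the set. Over all measured genes 13.2% were lower and 6.99% higher, and the median over all 8146 probes was 0.13.

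Keap1 encodes the sensor that marks the antioxidant factor NRF2 (gene Nfe2l2) for degradation, and it had 4 probes in the set, the most of any gene. Those probes read 9.71, 8.14, 8.88 and 9.63 in the non-activated control, 9.52, 8.47, 8.99 and 9.57 in the activated control, and 7.72, 6.36, 7.16 and 7.88 under E29. The 4 probes thus lay 3.24-fold to 4.31-fold below the activated control. Nfe2l2 read 8.78, 9.32 and 7.77, 2.92-fold below the activated control, while Cul3, the ubiquitin ligase scaffold that works with Keap1, differed by -0.07. Of 10 measured NRF2 target genes, 1 (Prdx1) was at least 2-fold lower by any probe, none by the mean of its probes, and none was higher. Their median difference was -0.23, and of all measured genes 13.2% were lower and 6.99% higher.

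Genes of the Toll-like receptor pathway contributed 3 members, out of 17 activation-neutral probes of the list. Of all activation-neutral probes 5.29% were members. Irak2, a kinase that sustains signalling from the receptor complex, read 9.78 in the non-activated control, 10.76 in the activated control and 8.16 under E29, 6.08-fold below the activated control. Across the other compounds it stayed between 10.30 and 10.75. Ikbkg (NEMO), the regulatory subunit of the IκB kinase complex, and Tirap, the adaptor that brings MyD88 to the receptor, were 3.16-fold and 2.14-fold below the activated control. In the pathway list as a whole, 7 of 16 measured genes were at least 2-fold lower and none was higher (median difference -0.64), where 13.2% of all measured genes were lower. Of the other 4, Tab1, Tab2 and Traf6 lay at -1.86, -1.37 and -1.07 with their lowest probes. The last, Tlr1, was at the floor under E29 and at least 1.79-fold below the activated control, so that 6 genes reached 2-fold when such probes are taken at their bound. Counted by the mean of each gene's probes, 5 of the 16 were lower. Fadd and Bid, which relay death receptor signals, were 2.05-fold and 4.09-fold below the activated control, and the receptors Tnfrsf11a (RANK) and Tnfrsf12a (the TWEAK receptor) were 2.88-fold and 3.24-fold below it. Probes of these genes outside the set lay at -0.87 and -0.44 for Fadd and at -0.61 for Tirap, less than 2-fold. Those for Irak2 and Ikbkg lay at -2.45 and -1.74.

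The set also held genes of the cell cycle and of the DNA damage checkpoint. Ccnq, the cyclin partner of the kinase CDK10, read 9.80 and 9.21 in the non-activated and activated controls, 8.89 to 9.36 under the other compounds and 6.26 under E29, 7.75-fold below the activated control. Hus1 and Rad9a encode subunits of the ring-shaped clamp that Rad17 loads at damaged DNA. The brightest Hus1 probe read 8.11 and 8.56 in the non-activated and activated controls, 7.94 to 8.89 under the other compounds and 6.17 under E29, 5.22-fold below the activated control. The other Hus1 probes were at the floor under E29, at least 4.56-fold and 3.59-fold below the activated control. Rad9a read 7.09 and 7.90 and was also at the floor, at least 3.67-fold below the activated control. The third subunit, Rad1, and the loader Rad17 were not in the set, with differences of 0.58 and -0.60. Gadd45a, a growth arrest and damage gene, read 7.77, 7.82 and 6.34 with its brighter probe, 2.79-fold below the activated control, and 3 of 11 measured p53 targets were lower (median -0.29) with none higher. For all measured genes the shares were 13.2% lower and 6.99% higher.

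Ccnd1 and Ccnd2 encode D-type cyclins, which carry growth signals into the G1 phase, and they were the only genes of the set for which E29 was not always the lowest array. Ccnd2 read 10.65 in the non-activated and 10.49 in the activated control, 9.26 under E29, and 9.18, 8.94 and 9.20 under E5, E19 and E20. Ccnd1 (probe ILMN_2601471) read 10.38 and 9.40 in the controls, 8.10 under E29, and 8.50, 8.66 and 8.06 under E5, E19 and E20. E29, E5, E19 and E20 therefore shared low Ccnd1 and Ccnd2 signals, whereas E33 read 10.84 for Ccnd2 and 10.39 for this Ccnd1 probe, at or above both controls. The brighter Ccnd1 probe, ILMN_1221503, read 10.67 under E33, between the non-activated control at 10.89 and the activated control at 9.81. The third family member, Ccnd3, was higher under E29 than in the activated control by 1.11 (probe ILMN_3131063) and 0.84. The first of these probes read 8.85 in the activated control and 8.87 to 9.02 under E5, E19 and E20. In the list of G1/S and replication genes, 2 of 27 measured genes were lower and 9 higher under E29, with a median of 0.59, so Ccnd1 and Ccnd2 ran against their list and Ccnd3 with it. Among all measured genes 13.2% were lower and 6.99% higher.

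Enzymes and regulators of sterol synthesis supplied 4 genes. Of the 17 activation-neutral probes of the cholesterol and fatty acid list 5 were members, against 5.29% of all such probes. Insig1, which holds the sterol sensor in the endoplasmic reticulum, read 9.89, 9.95 and 8.62 in the non-activated control, the activated control and E29. The enzymes Lss, Msmo1 and Sqle were 2.26-fold, 2.35-fold and 2.21-fold below the activated control, and all 3 also read lower in the activated than in the non-activated control. For Insig1, Lss, Msmo1 and Sqle alike the next lowest array was E33. In the list of cholesterol and fatty acid synthesis genes, 5 of 16 measured genes were lower, the fifth being Hsd17b7 at -1.22, and 1 was higher (Scd2, a fatty acid desaturase, at 1.55). The median difference was -0.46, and the rate-controlling early enzyme gene Hmgcs1 differed by -0.22. Further probes of Insig1 and Sqle, outside the set, lay at -0.46 and -0.98. The shares over all measured genes were 13.2% lower and 6.99% higher.

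Txnip and Arrdc4 encode alpha-arrestins that limit glucose uptake, and both measured members of that family were in the set. Txnip read 10.74 and 10.60 in the controls, 10.20 to 10.96 under the other compounds and 8.04 under E29, 5.91-fold below the activated control. Arrdc4 read 11.29, 11.54 and 10.25 in the non-activated control, the activated control and E29. Hilpda and Plin2, proteins of the lipid droplet, Pfkfb4, an enzyme that sets the level of a glycolysis activator, and Vhl, which targets hypoxia-inducible factors for degradation, were in the set too. Hilpda was 4.31-fold, Pfkfb4 2.96-fold and Plin2 2.14-fold below the activated control, and Vhl, at the floor, at least 1.75-fold. The other measured genes of this group were not members, with Plin3, a further lipid droplet protein, at 0.70, the oxygen sensor gene Egln2 at 0.04 and Hif1a at -0.98. Of 13 measured glycolysis genes 1 was lower and 1 higher, with a median difference of 0.41, and none of 18 measured oxidative phosphorylation genes was lower or higher by 2-fold (median 0.34). Across all measured genes 13.2% were lower and 6.99% higher.

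A further group, put together after the members were seen, held nuclear genes for mitochondrial gene expression and cytochrome oxidase assembly. Nrf1, a transcription factor for many of these genes, read 8.49 and 8.10 in the non-activated and activated controls, 7.76 to 8.36 under the other compounds and the floor under E29, at least 4.20-fold below the activated control. Mterf1a, a transcription termination factor with 3 probes in the set, was at the floor under E29 with each and at least 1.92-fold to 2.76-fold below the activated control. Tefm (elongation), Mtif3 (translation initiation), Gtpbp3 (tRNA modification), Mrps2 (a ribosomal protein) and Coa5 (cytochrome oxidase assembly) were 2.35-fold, at least 1.86-fold, 3.01-fold, 2.66-fold and 3.02-fold below it. Tfam, which packages and transcribes mitochondrial DNA, went the other way at 1.11 and 1.10 with its probes. Polrmt, the polymerase, differed by -0.23 and Mterf3 by -0.66. Of the 9 measured genes of the group, in which Nrf1 was not counted, 6 were at least 2-fold lower (5 at the bound) and 1 higher. Over all measured genes 13.2% were lower and 6.99% higher.

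The set also held splicing factors, zinc-finger proteins and ribosome biogenesis factors. The splicing factors Srsf1, Srsf3 and Srsf4 lay at -1.04, -1.70 and -1.40 relative to the activated control with member probes detected under E29, and a second Srsf3 probe was at the floor, at least 2.81-fold below it. Of the SR family, 3 of 8 measured genes were lower with none higher (median -0.47). Of 57 genes with zinc-finger protein symbols (Zfp, Zbtb, Zscan and Zkscan) and an activation-neutral probe, 18 were members. The member share over all activation-neutral probes, counted by probe and not by gene, was 5.29%. The members Zfp512, Zfp593 and Zfp747 did not reach 2-fold below the activated control at their bound. Among 77 measured genes with such symbols, 24 were lower (19 with undetected probes at their bound) and 7 higher, with a median of -0.31. Over all measured genes these shares were 13.2% (12.0% at the bound) and 6.99%. Of 28 measured genes of ribosome biogenesis 5 were lower (4 at the bound) and none higher, with a median of -0.005. The members there were Gnl3, a nucleolar GTPase, and Rrs1, a ribosome assembly factor, at least 3.41-fold and at least 2.29-fold below the activated control. A brighter Gnl3 probe outside the set read 11.05 in the activated control and 10.21 under E29, a difference of -0.85. No member came from the lists of RNA polymerase II and mediator subunits, lysosome and autophagy genes, heat shock proteins, G2/M genes, NF-kB targets or interferon-stimulated genes. The first 4 of these lists held only 19, 25, 11 and 19 activation-neutral probes. With 5.29% of all such probes being members, few or none would be expected in each, so the absence is not read as a trait of these lists. For the NF-kB and interferon lists the rule left almost no room, since 1 probe in each was activation-neutral at the required level.

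In 4 genes of the set, picked after their values were seen, the activated control read above most arrays that received a compound. Mertk, a receptor for the uptake of dead cells, read 7.29 in the non-activated and 9.06 in the activated control, 7.29 to 9.14 (median 8.08) under the other compounds and 6.13 under E29. Fcgr1, the high-affinity Fc receptor, read 7.99, 9.74 and 6.86 in the non-activated control, the activated control and E29, with 8.18 to 8.94 under the other compounds. For Clec5a, a receptor that couples to the adaptor DAP12, and Evl, an actin regulator, the activated control also read above the other compounds. It read 8.80 and 8.48 against medians of 7.52 and 6.95. In both genes that median lay below the non-activated control (7.78 for Clec5a), whereas for Mertk and Fcgr1 it lay between the controls. Mertk under E33, at 9.14, was the exception above the activated control in these 4 genes, and the labels name no vehicle for the compounds. The activated control was the highest of the 12 arrays for 34 members (10.6%) and for 4.39% of the activation-neutral probes. When the median of the other 10 activated arrays replaced it in the rule, 338 probes qualified, of which 297 were among the 321. Sh3bp2, an adaptor that relays kinase signals in myeloid cells, read 10.75 and 10.68 in the controls, 10.43 to 10.77 under the other compounds and 7.75 under E29, 7.60-fold below the activated control. Csf1, a growth factor for microglia, read 9.87, 10.05 and 7.86 in the non-activated control, the activated control and E29, 4.56-fold below the activated control. Of 18 activation-neutral probes of microglial identity genes 2 were members (P2ry6 and Mertk), against 5.29% of all activation-neutral probes. Of 14 measured genes of that list these 2 were lower and 1 was higher (P2ry13), with a median difference of 0.48. Over all measured genes 13.2% were lower and 6.99% higher.

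Across the 9 other compounds the 321 probes stayed close to the activated control. The median difference ran from -0.09 under E19 to 0.05 under E18, and from -0.30 to -0.17 against the non-activated control. E29 was the lowest of the 12 arrays for 319 of the 321 probes, against 23.4% of the activation-neutral probes, a difference that the rule itself produces. The gap between E29 and the next lowest array had a median of 1.05, and it was at least 1 for 194 probes (3.20% of the activation-neutral probes). The next lowest array was E33 for 66 probes, E19 for 58, the non-activated control for 45, E20 for 40 and the activated control for 20, with 8 to 24 for each of the others.

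At least 2-fold below both controls, E20 had 4 members, E33 3, E5 and E19 2 each, and E4, E14, E18, E21 and E23 had none, against 0.0660%, 0.165%, 0.0660%, 0.0989%, 0.0495%, 0.0165%, 0.0330%, 0% and 0% of the activation-neutral probes in that order. In all, 313 of the 321 probes were lower by 2-fold under no other compound. The 8 exceptions were both Ccnd1 probes, Ccnd2, P2ry6, Clec5a, Spic, Tbc1d23 and 1 unnamed probe. Spic, a factor of red pulp macrophages, read 7.44 and 7.81 in the controls, 5.78 under E33 and the floor under E29, with 7.31 to 8.25 under the other 8 compounds. Clec5a read 6.26 under E33 and 7.21 to 7.85 under those 8. Both genes were therefore low under the same 2 compounds.

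At least 2-fold above both controls, E19 had 2 members (both Hvcn1 probes), E5 1 (Hvcn1), E4 1 (Cldn12) and the other 6 compounds none. Of the activation-neutral probes, 0.165%, 0.0660% and 0.0989% were that far above both controls under E19, E5 and E4, and 0% to 0.0660% under the others.

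E5, E19 and E20 shifted a few members together. All 3 were at least 1.5-fold below both controls for 6 members (Ccnd1 with both probes, Ccnd2, P2ry6, Pdzrn3 and Tefm), where 0.165% of the activation-neutral probes, 10 in number, did the same. Hvcn1, a voltage-gated proton channel that supports the oxidative burst of phagocytes, went the other way. Its probe ILMN_1243451 read 8.50 and 8.53 in the controls, 9.62, 9.80 and 9.41 under E5, E19 and E20, and 6.36 under E29, so that E19 and E29 differed by over 3 log2 units. The second Hvcn1 probe gave the same order, at 8.61, 8.75 and 8.30 under E5, E19 and E20 and the floor under E29. Zfp236 was the remaining gene that was at least 1.5-fold above both controls under all 3, with 0.247% of the activation-neutral probes doing so. Cldn12, a tight junction protein, read 7.59 and 7.37 in the controls, 8.78 under E4 and 5.85 under E29, where it was not detected.

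The rule limited the median of the 11 activated arrays and not the activated control by itself. The activated minus non-activated control difference ran from -1.09 to 1.77 in the set, and it reached 2-fold upward for 8 probes and downward for 3. The activated control lay above the non-activated control for 127 probes and below it for 194, with a median difference of -0.13 against -0.14 for the activation-neutral probes. The median over the 11 activated arrays was below the non-activated control for 69.5% of the members and 63.1% of the activation-neutral probes. The lowest values of activated minus non-activated control belonged to Tbcel, both Ccnd1 probes, Zfp637 and Trim32, and the highest to Mertk, Fcgr1, Rgs1 (with 2 probes) and Evl.

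Probes for the same gene allowed a check within the arrays. Of the 264 genes, 34 had at least 2 probes in the set. Among them were Rgs1, Hus1 and Mterf1a with 3 each and Keap1 with 4. A further 49 probes of 41 of the genes had a signal of at least 100 on both controls and did not meet the rule. Of these, 46 were below the activated control under E29, with a median difference of -0.82 (interquartile range -1.16 to -0.55), against 43.9% of all 6853 probes at that level. They measure the same RNA on the same arrays and were left out by the rule for being less low or less neutral, so they add no independent support. Clec5a shows the spread between probes: its member probe was at the floor under E29, at least 6.86-fold below the activated control, while the others differed by -1.80 and -1.41 from it.

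By the correlation of log2 signals over the 12 arrays with the members' median, the most similar probes outside the set were Tesk1 (r = 0.97), Rbbp5 (0.97), Med8 (0.96), Rnps1 (0.96) and a second Srsf1 probe (0.96). The likeness rested mostly on the E29 array, since without it the coefficients over 11 arrays were 0.44, 0.45, 0.58, 0.84 and 0.45. Tesk1 read 9.28 and 9.25 in the controls and 8.30 under E29, and Rbbp5 read 8.08, 7.82 and 6.95. In the RefSeq annotation of GRCm38.p6, 6 pairs of members were direct neighbours among protein-coding genes: Nlk with Ccnq, Srsf1 with Vezf1, Rin2 with Naa20, Clip1 with Zcchc8, Vhl with Irak2, and Irak2 with Tatdn2.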

How the data were processed

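The authors deposited, per the file headers, a scanner table with a mean bead intensity and a detection p-value for each probe on each of the 12 arrays, made with GenomeStudio 2010.3 per the submitters' processing notes, and a table of processed intensity values. The processed intensity is linear, was set to 10 at its lowest and had array medians of 14.9 to 15.0, and how it was normalized is not stated in the labels or file headers. No deposited value was on a log2 scale: the log2 signals were computed here after raising processed values to at least 50. A probe counted as detected at a deposited detection p-value under 0.01.

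Of 25697 probes, 23978 had 1 gene symbol in the platform annotation, 0 had several and 1719 had none, and 23962 matched a RefSeq gene. The members, the gene lists and the families were chosen with earlier results of these data known. A probe or gene was tested in a list at a signal of at least 100 on E29 or the activated control, and a gene counted as lower or higher if any of its probes differed by at least 1. Named genes followed a rule: the 15 largest differences from the lower control, 10 with the highest control signal, the 5 lowest and 5 highest under the other compounds and on activation, the 10 largest gaps to the next array, all members of a list, genes with at least 2 member probes, probes at the limits and the 5 most alike non-members. Other genes named, including those of the 14 families, were chosen after their values were seen.

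The alternatives were floors of 20 and 100, neqc (limma 3.58.1, R 4.3.3, offset 16) and quantile normalization of the scanner signals, and changes to the rule. The rule was tested on simulated data for E29 against both controls over 25697 probes. There it recovered 0%, 26%, 98% and 96% of 50 probes each lowered 1.5-, 2-, 3- and 4-fold and called 0 unchanged probes. With 1 array per condition, the simulated noise could not come from replicates of the E29 array. The 0 unchanged probes called in the simulation therefore give no rate of false members for that array. No pair of arrays held identical signals. Calculations used Python 3.11.15 with pandas 2.3.3 and numpy 2.4.6.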

Additional observations from a re-analysis of the deposited data

How the results depend on the processing

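All 321 probes stayed below both controls under E29 with floors of 20 and 100, with neqc and with quantile normalization of uncorrected scanner signals, and none of 472 single-probe values for 118 named probes changed direction (183 moved by more than the spread of that probe over the other 10 activated arrays). The members were chosen as at least 2-fold below both controls on these same arrays, and a changed floor cannot reverse that order. The kept direction therefore adds no independent support. The size depended on the scale. E29 minus activated control had a median of -1.42 as reported, -1.52 with a floor of 20, -1.18 with a floor of 100, -1.39 with neqc values raised to the same floor of 50 (-1.46 without that floor) and -0.92 with quantile normalization. Against the non-activated control it was -1.63, and -1.69, -1.38, -1.62 (-1.71 without the floor) and -1.09 in that order, and the gap to the next lowest array was 1.05, and 1.16, 0.87, 1.05 and 0.65. Without background correction signals are compressed toward each other, and fewer probes reach 2-fold. The rule gave 483 probes with a floor of 20, 218 with a floor of 100, 297 with neqc (264 shared with the 321) and 116 with quantile normalization (111 shared). A required difference of 1.5 gave 109, and a limit on activation of 0.5 gave 209. When each compound was set against the 10 remaining activated arrays (their median), the members' medians were 0.016 for E5 (-0.041 as reported), 0.11 for E18 (0.053), -0.045 for E19 (-0.089) and 0.019 for E21 (-0.036), all small beside the E29 value. The remaining 63 of 80 alternatives for the main values moved by less than 0.04, the SD of the 9 other compounds' medians, or kept a count within 1.5-fold. No paired analysis was possible because the design holds a single array per condition. Signal over background limits 105 of the probes, which were not detected under E29 and have only a bound there. With 1 array per condition, a property of the E29 or the activated control array and an effect of the treatment cannot be told apart.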
